A study of Mus musculus with 4 samples.

Results

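The genes described here encode the proteins that dock and fuse vesicles with membranes, together with the best-known proteins of the synaptic vesicle. They were taken from the gene tables by symbol, as every numbered synaptotagmin (*Syt*), synaptotagmin-like (*Sytl*), syntaxin (*Stx*), syntaxin-binding (*Stxbp*), *Vamp* and *Snap* gene, plus *Syp*, *Syn1*, *Syn2*, *Syngr1*, *Syngr2* and *Sv2a*. The rule found 59 of the 17559 genes listed, of which 20 belong to a list of genes known from the neuronal synapse and 5 to lymphocyte granule release (*Stx11*, *Stxbp2*, *Vamp8*, *Vamp7* and *Snap23*). The RNA came from CD8+ T cells of C57BL/6 mice, 4 libraries in all, with the tissue labelled LN and the genotype OT-I, a transgenic T cell receptor that recognises an ovalbumin peptide, so that the cells share 1 antigen specificity. The cells were enriched by negative selection to above 95%, activated for 2 d with 10 ng/ml IL-2 on a surface bearing antibodies to CD3 (1 µg/ml) and CD28 (2 µg/ml), and kept for 2 d more in IL-2 alone. For the last 12 h, the cells of 2 libraries were exposed to NaBu at 1 mM and those of the other 2 were labelled control, with no vehicle named. NaBu commonly stands for sodium butyrate, the salt of a microbial fatty acid that inhibits histone deacetylases. The labels do not say whether the 2 libraries of a group came from separate mice or cultures, so the p-values speak only for the spread among these 4 libraries, which may be technical.

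As background, vesicles fuse when SNARE proteins on the vesicle (the VAMPs) zip together with SNARE proteins on the target membrane (a syntaxin and a SNAP protein), while a syntaxin-binding protein of the Munc18 family holds and guides the syntaxin. Synaptotagmins make fusion respond to calcium, and synaptotagmin-like proteins tether vesicles through Rab27. Neurons use a dedicated set of these proteins to release transmitter, whereas cytotoxic T cells use relatives, among them syntaxin 11 and Munc18-2, to release lytic granules at the contact with a target cell. Inherited loss of syntaxin 11 or Munc18-2 impairs lymphocyte killing and causes familial haemophagocytic lymphohistiocytosis.

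Expected counts, the fragments that the authors' quantification assigned to genes, summed to between 19857701 and 20548571 per library. Members held between 0.136% and 0.14% of them in control and between 0.163% and 0.165% in NaBu. Levels are given as FPKM, fragments scaled to transcript length and to the mapped fragments of the library, which is a scale per length on which genes can be compared. The 10 T cell markers were all detected, with *Cd3e* at an FPKM of 293 or more and *Cd8a* at 93.9 or more in every library, but 7 of them were called lower in NaBu, *Cd3e* and *Cd8a* included, 1 higher and 2 not, with a median log2 fold change of -0.44. The largest of these falls was that of *Ptprc*, encoding CD45, from 306 and 338 to 130 and 138. Beside these and the marker counts that follow, 34.1% of all tested genes were called lower and 34.5% higher. Of genes with a mean FPKM under 5 over the 4 libraries, 44.6% were called higher. Of 18 neuron markers, 13 were listed, and without *Nefh* (21.1 and 21.9 in the controls, 11.1 and 12.3 in NaBu) their summed FPKM was 1.74 and 1.77 in control and 3.95 and 4.1 in NaBu. Of the 6 neuron markers tested, *Tubb3* (0.42 and 0.5, then 1.55 and 1.55) and *Ncam1* (0.52 and 0.62, then 1.02 and 1.3) were called higher, *Nefh* lower and 3 neither, and the 7 not tested had an FPKM of at most 0.43. Of 10 myeloid markers, 3 were at 0 in every library, 7 were listed and 5 were tested. Of the 5 tested, 4 were higher in NaBu. The summed FPKM of the 7 listed went from 15.7 and 14.0 to 40.9 and 38.7, mostly through *Cd68* (11.4 and 9.59, then 28.4 and 27.1). *Itgam* rose 8.93-fold (0.45 and 0.45, then 4.83 and 3.79), *Mpeg1* 6.03-fold (0.2 and 0.39, then 1.96 and 1.86) and *Itgax* 1.79-fold, while *Fcgr3* did not pass and *Adgre1* and *Cd14*, at or below 0.02 and 0.21, were not tested. The part of other cell types in the differences below was not tested, and in bulk samples fewer cells of a type and less RNA per cell cannot be told apart.

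NaBu was set against control to find the transcripts that differed after 12 h of exposure in activated CD8+ T cells. Of the 20 neuronal members, 13 had enough counts to be tested, of which 10 were called higher in NaBu and 3 did not pass, with a median log2 fold change of 1.16. By edgeR 0 of the 13 were lower, 0 also at an unadjusted p under 0.05, and DESeq2 and limma called 0 lower as well. The 3 called genes *Syp*, *Syt3* and *Syt5* passed the filter on low counts only through NaBu, the group where they are high, so their direction was fixed by that choice and they add nothing to the count. Of the 9 neuronal members that passed the filter in both groups, 7 were higher, against 31.3% of the 11759 genes that did so. The lists were chosen with earlier results of these data known, so these counts are a description and not an independent test. Of the 5 granule release members, *Stx11* and *Snap23* were higher, *Stxbp2* and *Vamp8* lower and *Vamp7* did not pass, with a median of -0.21. A gene was called when edgeR's quasi-likelihood test, fitted to the counts of all genes, gave a Benjamini-Hochberg adjusted p under 0.05. That happened for 68.6% of the 12943 genes tested, 34.5% higher and 34.1% lower, and the median gene moved by 0.005 on the log2 scale. Over all 59 members, 47 had enough counts to be tested, of which 25 (53.2%) were higher, 8 (17.0%) lower and 14 not called, with a median of 0.45. Of the 25, *Syp*, *Syt3*, *Syt5* and *Syt17* passed the filter only through NaBu. Of the 41 members that passed it in both groups, 21 (51.2%) were higher and 8 lower, against 31.3% higher of all such genes.

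**Figure D1:**
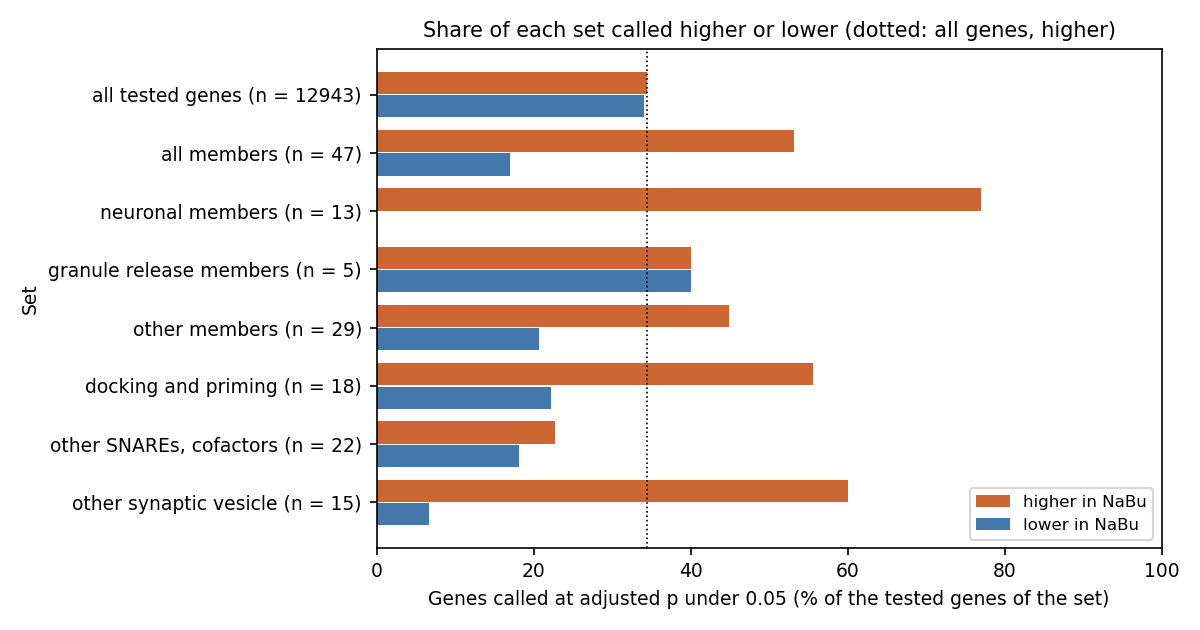
Bars show the percentage of the tested genes in each set that were called higher (orange) or lower (blue) in NaBu at an adjusted p under 0.05, with the number of tested genes in brackets and a dotted line at the share of all genes called higher. The neuronal members, 3 of which passed the filter only through NaBu, reach 76.9% higher and 0% lower, the granule release members 40% and 40%, against 34.5% and 34.1% of all tested genes.

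Changes of at least 2-fold were counted as well. Called and at least 2-fold higher were 8 of the 13 neuronal members and none of the 5 granule release members, against 14.9% of all tested genes. *Syp*, *Syt3* and *Syt5* are among the 8, and as they passed the filter only through NaBu they add nothing to this count either. The 14.9% also includes genes that passed only through NaBu. No member reached a called fall of 2-fold, with *Sytl2* just short of it, against 8.11% of all tested genes. Low genes rose more often in this experiment, and most neuronal members were low. Among genes with a mean FPKM under 5 over the 4 libraries, 44.6% were called higher and 31.8% at least 2-fold higher, and of the 10 tested neuronal members under that level 7 and 6 were, the same 3 genes included. Groups without overlap between the 4 FPKM values were found for 11 of 13 neuronal and 4 of 5 granule release members, near the 84.0% of all tested genes. The difference between the neuronal and the granule release genes was not tested as such. Of the 23 genes of the neuronal list, 3 were listed for no library, NaBu included. Of the remaining 20, 7 had too few counts to test, with an FPKM of at most 0.13.

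**Figure D2:**
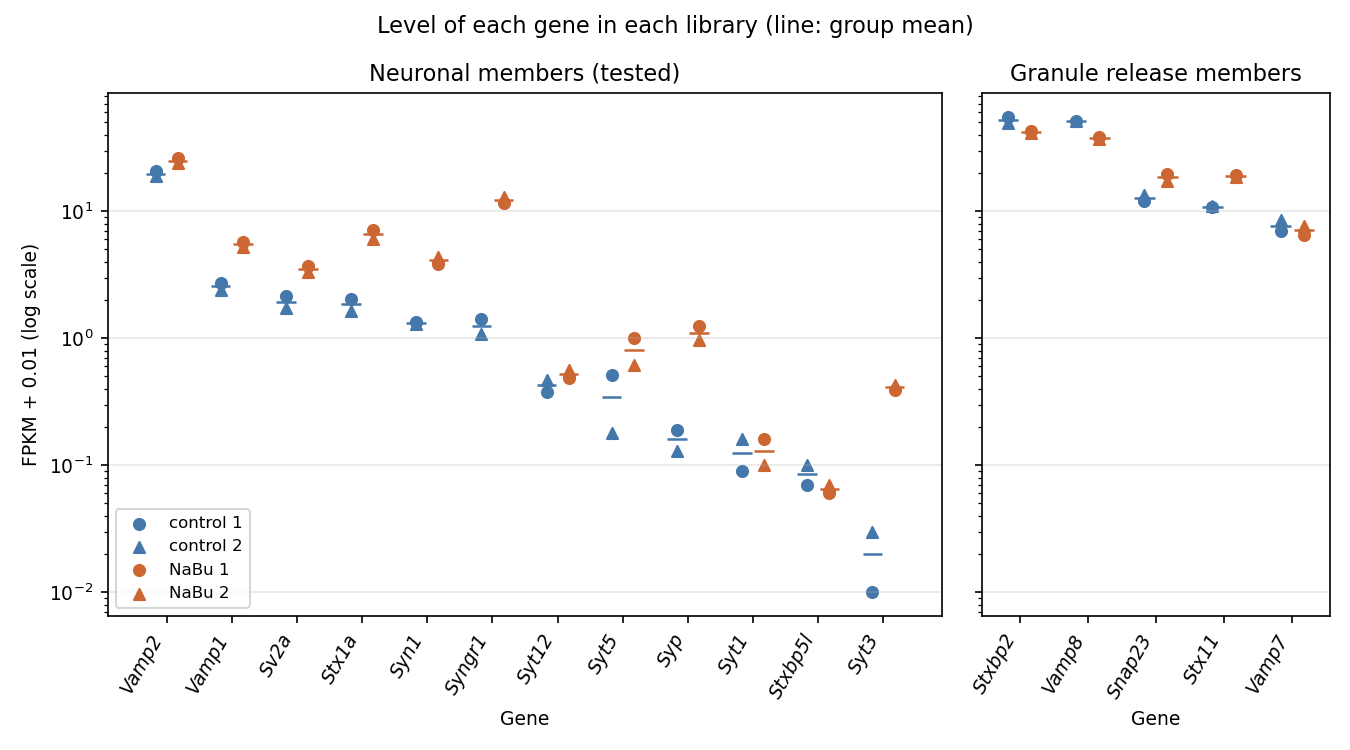
Points give FPKM plus 0.01 on a log axis for tested neuronal members (left) and each granule release member (right), with controls in blue, NaBu in orange, a circle for replicate 1, a triangle for replicate 2 and a line at the group mean. *Syngr1*, *Syp* and *Syt3* lie well apart between the groups, and the 2 highest granule release genes, *Stxbp2* and *Vamp8*, lie lower in NaBu.

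The proteins of the synaptic vesicle membrane and its surface had 5 of 5 tested genes higher, against 34.5% of all tested genes. Of these 5, *Syp* passed the filter only through NaBu. *Syngr1* (gene 20972, GRCm38 chromosome 15, 80091334 to 80119501) encodes synaptogyrin 1, a 4-pass membrane protein of synaptic vesicles. It had an FPKM of 1.41 and 1.07 in control and 11.7 and 12.9 in NaBu. Both NaBu libraries were far above both controls, a 9.96-fold rise (log2 3.32 ± 0.17 SE, edgeR adjusted p = 6.02e-08). *Syngr2*, the relative found outside neurons, was the most abundant of all members, at 87.9 and 86.6 in control and 106 and 109 in NaBu. Its rise was small, 1.15-fold (edgeR adjusted p = 0.00867), and was not called when either NaBu library was left out (adjusted p = 0.0786 without NaBu 1 and 0.132 without NaBu 2). *Syngr1* made up 1.58% and 1.22% of the summed FPKM of the pair in control and 9.91% and 10.6% in NaBu.

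*Syp* (gene 20977, chromosome X, 7638580 to 7653256) encodes synaptophysin, the standard marker protein of synaptic vesicles. Its FPKM was 0.18 and 0.12 in control and 1.23 and 0.95 in NaBu, from 9 and 6 against 61 and 47 counts. The fold change was 6.84 (log2 2.77 ± 0.34 SE, edgeR adjusted p = 3.82e-05), on a gene that stayed near an FPKM of 1. *Syp* passed the filter on low counts only through NaBu, so its direction was fixed by that choice. *Syn1* (gene 20964, chromosome X, 20860511 to 20920918) encodes synapsin 1, which ties vesicles to the cytoskeleton. It stood at 1.33 and 1.29 in control and 3.86 and 4.35 in NaBu, a 2.94-fold rise (log2 1.56 ± 0.13 SE, edgeR adjusted p = 2.16e-06). *Sv2a*, a vesicle glycoprotein that binds the drug levetiracetam, went from 2.14 and 1.72 to 3.67 and 3.32, a 1.69-fold rise. *Syn2*, the synapsin 2 gene, had 1, 0, 6 and 1 counts in the 4 libraries and was not tested.

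The bases before the start sites of 4 neuronal genes that rose and of *Vamp8*, a granule release gene that fell, are shown so that their base composition and short motifs can be set side by side. They come from RefSeq on GRCm38.p6, each 250 bases up to the base before the annotated start, 5′ to 3′ on the gene's strand, with searched motifs in capitals. They lie at chr15:80091084-80091333, plus strand for *Syngr1*, chrX:20920919-20921168, minus strand for *Syn1*, chrX:7638330-7638579, plus strand for *Syp*, chr5:135023232-135023481, plus strand for *Stx1a* and chr6:72390668-72390917, minus strand for *Vamp8*.
Syngr1: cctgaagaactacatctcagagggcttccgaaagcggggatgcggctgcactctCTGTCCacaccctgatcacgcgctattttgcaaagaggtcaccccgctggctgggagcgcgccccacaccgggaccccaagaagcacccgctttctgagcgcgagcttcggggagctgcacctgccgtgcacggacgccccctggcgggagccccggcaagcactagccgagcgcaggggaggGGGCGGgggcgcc
Syn1: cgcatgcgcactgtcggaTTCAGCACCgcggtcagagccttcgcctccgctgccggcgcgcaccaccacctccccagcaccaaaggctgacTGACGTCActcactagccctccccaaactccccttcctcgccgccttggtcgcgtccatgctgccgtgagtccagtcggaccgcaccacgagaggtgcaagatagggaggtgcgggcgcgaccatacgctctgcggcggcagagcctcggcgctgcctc
Syp: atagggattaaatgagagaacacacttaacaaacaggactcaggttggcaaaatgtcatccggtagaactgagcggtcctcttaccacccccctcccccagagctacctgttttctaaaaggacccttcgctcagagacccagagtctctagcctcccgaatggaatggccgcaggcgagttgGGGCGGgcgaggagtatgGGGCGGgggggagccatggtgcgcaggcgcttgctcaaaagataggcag
Stx1a: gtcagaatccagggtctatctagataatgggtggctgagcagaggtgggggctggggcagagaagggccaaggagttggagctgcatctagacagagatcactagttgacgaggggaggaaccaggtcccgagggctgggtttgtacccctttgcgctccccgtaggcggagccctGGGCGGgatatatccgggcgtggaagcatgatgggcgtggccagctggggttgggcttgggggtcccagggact
Vamp8: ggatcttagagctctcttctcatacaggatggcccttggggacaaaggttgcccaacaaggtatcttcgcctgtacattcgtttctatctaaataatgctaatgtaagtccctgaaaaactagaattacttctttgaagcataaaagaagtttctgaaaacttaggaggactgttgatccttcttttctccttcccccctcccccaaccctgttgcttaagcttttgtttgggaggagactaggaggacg
The motifs were GGGCGG (a GC box, the site of Sp1-family factors), TGACGTCA (the cyclic AMP response element), CCAAT (the CAAT box), TATAAA (the TATA box), TTCAGCACC (the left part of the element bound by REST, a repressor of neuronal genes) and GGACAG (its right part), searched on both strands, with no motif contained in another. Only *Syn1* among the 46 members with a window held TTCAGCACC, which is in the windows of 0.417% of the 10303 tested genes with one. The same window held TGACGTCA, found for 3.62% of them, and lacked an exact GGACAG. Near matches were not searched, and the similar letters ggtcag stand shortly after TTCAGCACC in the printed stretch. GGACAG, the right part of the element, was present for 11 of the 46 members and 25.7% of tested genes. The *Syngr1*, *Syp* and *Stx1a* stretches held GGGCGG, and the *Vamp8* stretch held none of the 6. The *Syngr1* stretch also held GGACAG on the other strand, marked as CTGTCC. The groups overlapped in base composition. The GC content of the windows was 46.7% for *Vamp8*, 60.3% for *Snap23*, 61.3% for *Stxbp2* and 71% for *Stx11*, and among neuronal genes that rose it ran from 51.7% for *Vamp1* to 72.3% for *Syngr1*. Its median was 63.2% over members called higher and 61.3% over those called lower. Over windows of 250 bases before to 50 bases after the start, GGGCGG was present for 5 of the 7 neuronal members that rose and had a window, 33 of 46 members and 68.1% of tested genes. A match is a description of the letters and shows no binding.

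The syntaxins, the target-membrane SNAREs, had 7 of 13 tested genes higher (53.8%) and 4 lower (30.8%), against 34.5% and 34.1% of all tested genes. *Stx1a* (gene 20907, chromosome 5, 135023482 to 135051100), the syntaxin of the presynaptic membrane, had an FPKM of 2.03 and 1.64 in control and 7.15 and 6.02 in NaBu. The groups were well separated, with a 3.35-fold rise (log2 1.74 ± 0.15 SE, edgeR adjusted p = 2.21e-06). *Stx11* (gene 74732, chromosome 10, 12938217 to 12964498), the syntaxin of lymphocyte granule release, went from 10.8 and 10.9 to 19.3 and 18.7. This was a 1.6-fold rise (log2 0.68 ± 0.08 SE, edgeR adjusted p = 1.9e-05), and *Stx11* was above *Stx1a* in every library. The share of *Stx1a* in the summed FPKM of these 2 genes was 15.9% and 13.04% in the controls, against 27.0% and 24.4% in NaBu. *Stx19* reached at most 0.08 and was not tested.

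The remaining plasma membrane syntaxins moved apart. *Stx3*, known from apical and synaptic membranes, was at 0.56 and 0.7 in control and 2.36 and 2.36 in NaBu, a 3.61-fold rise. *Stx2* went from 6.64 and 6.44 to 11.9 and 11.9, a 1.71-fold rise. *Stx4a*, the syntaxin of regulated surface delivery in many cell types, was the most abundant syntaxin of the controls at 40.6 and 37.9, and fell 1.68-fold to 25.4 and 24.4 (edgeR adjusted p = 7.52e-06). In NaBu it was no longer the most abundant syntaxin, since *Stx6*, of the trans-Golgi network, went from 17.1 and 15.7 to 36.4 and 35.9, a 2.06-fold rise.

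Among syntaxins of inner membranes, the late endosomal *Stx7* rose 1.9-fold, from 9.88 and 10.4 to 20.6 and 20.5. Its endosomal partner *Stx8* rose 1.39-fold, from 3.32 and 3.25 to 4.71 and 5.07. The syntaxin of the endoplasmic reticulum, *Stx18*, fell 1.51-fold, from 8.67 and 8.36 to 6.1 and 5.95. These 3 genes showed no overlap between the groups, which was also the case for 84.0% of all tested genes. *Stx12* was at 16.0 and 16.0 in control and 14.8 and 15.3 in NaBu. *Stx16* was at 20.5 and 18.7, then 18.2 and 18.4. Both were called lower by the TMM-scaled test, with edgeR adjusted p of 0.0473 and 0.0247. Neither call held on library totals (edgeR adjusted p = 0.313 and 0.219) or with DESeq2 (adjusted p = 0.195 and 0.0798). The *Stx12* call was also lost with the replicate number as a block (edgeR adjusted p = 0.0682) and without control 1, NaBu 1 or NaBu 2 (0.0532, 0.268 and 0.152), and the *Stx16* call without the same 3 libraries (0.072, 0.171 and 0.141). *Stx5a* of the Golgi (27.7, 28.2, 29.1 and 28.6) and *Stx17* of autophagosomes (7.12, 6.0, 6.68 and 6.89), in the order control 1, control 2, NaBu 1 and NaBu 2, did not pass.

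**Figure D3:**
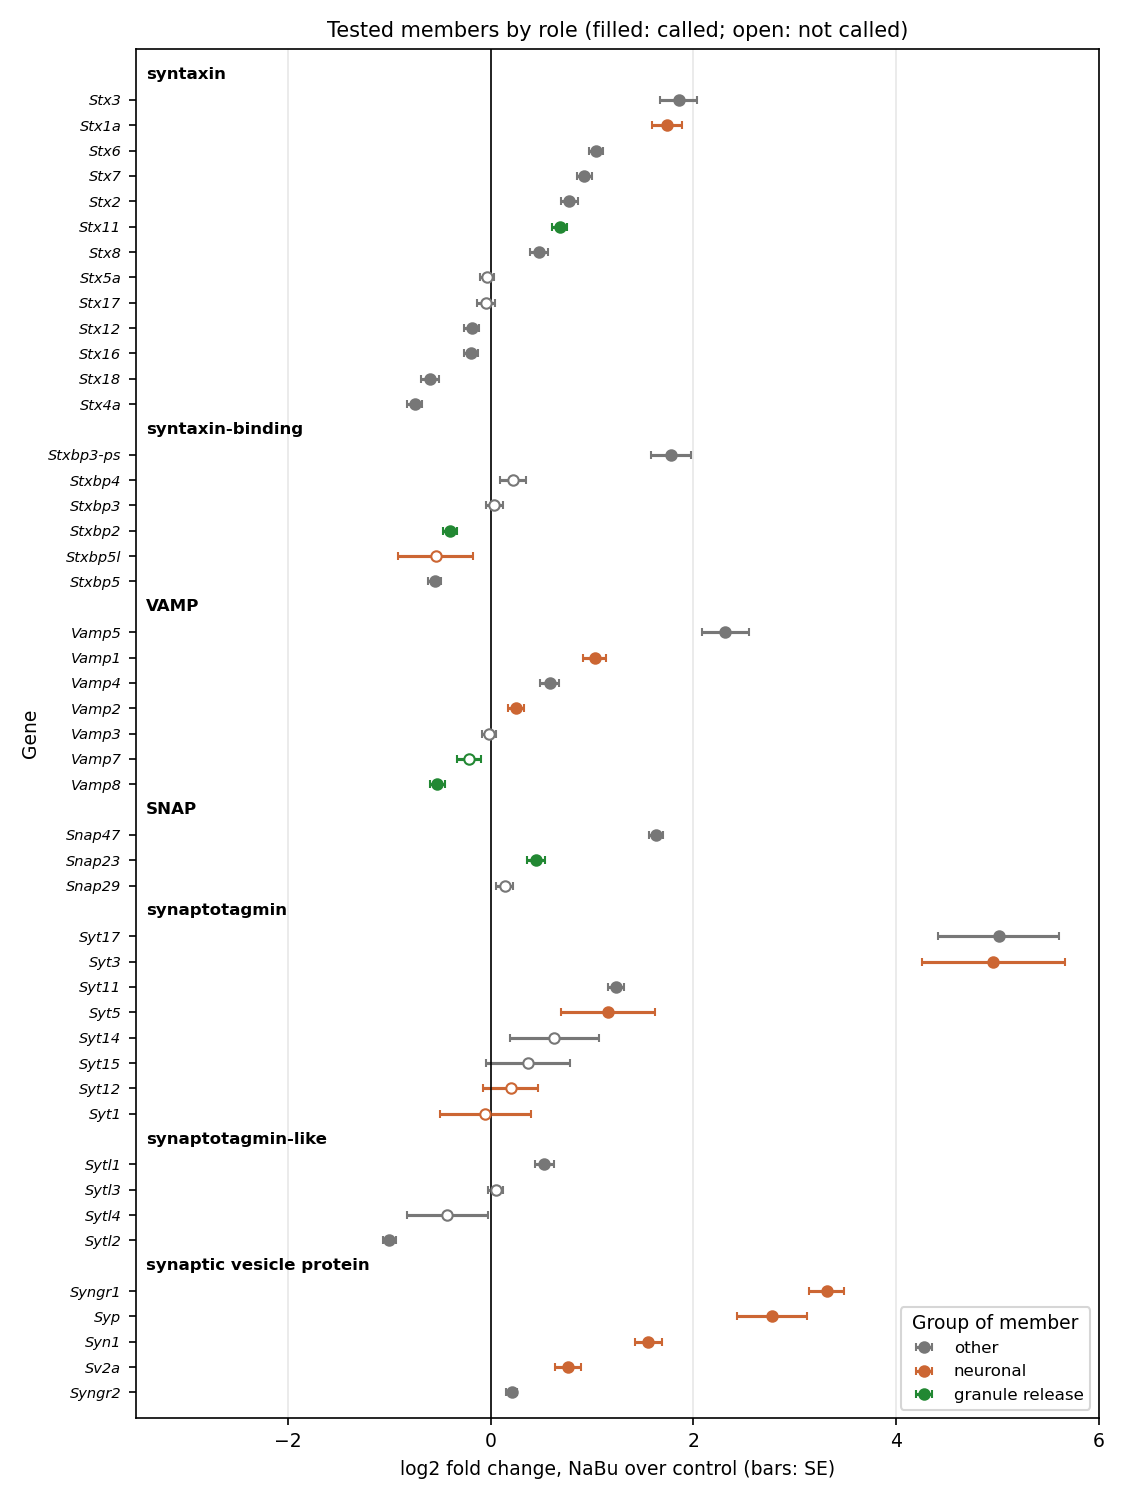
Each point is the log2 fold change of NaBu over control for 1 tested member, with its standard error as a bar, ordered by role. Filled points were called and open points were not, with neuronal members in orange, granule release members in green and the others in grey. The neuronal points that were called lie right of 0, from 0.25 for *Vamp2* to 4.96 for *Syt3*, and the green points lie between -0.53 and 0.68.

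Of the syntaxin-binding genes, 2 of 7 tested were higher and 2 lower, 28.6% each, against 34.5% and 34.1% of all tested genes. *Stxbp2* (gene 20911, chromosome 8, 3630960 to 3643998) encodes Munc18-2, the partner of syntaxin 11. It had 54.9 and 49.0 in control and 42.9 and 41.3 in NaBu. Both NaBu libraries were below both controls, a 1.32-fold fall (log2 -0.4 ± 0.07 SE, edgeR adjusted p = 0.000387). *Stxbp3*, encoding the widely expressed Munc18c, was at 8.86 and 9.45 in control and 10.1 and 10.0 in NaBu and did not pass.

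*Stxbp3-ps*, listed as a pseudogene of *Stxbp3*, matched the rule by its symbol. It went from 1.89 and 2.69 to 9.3 and 7.62 and was called 3.43-fold higher. Counts of *Stxbp3* and *Stxbp3-ps* were not whole numbers in nearly every library, as when reads are divided between similar genes, so the split between them is uncertain. Their summed counts were 473 and 523 in control and 665 and 630 in NaBu. *Stxbp5*, encoding tomosyn, a protein that occupies target SNAREs, fell 1.47-fold from 8.4 and 8.93 to 6.42 and 6.21. *Stxbp4* was at 1.09 and 1.18, then 1.45 and 1.39, and did not pass on the TMM scale, while on library totals it was called higher (edgeR adjusted p = 0.0457). *Stxbp5l*, the neuronal tomosyn relative, was at or below 0.09 in every library and did not pass, and *Stxbp6*, at or below 0.07, was not tested.

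**Figure D4:**
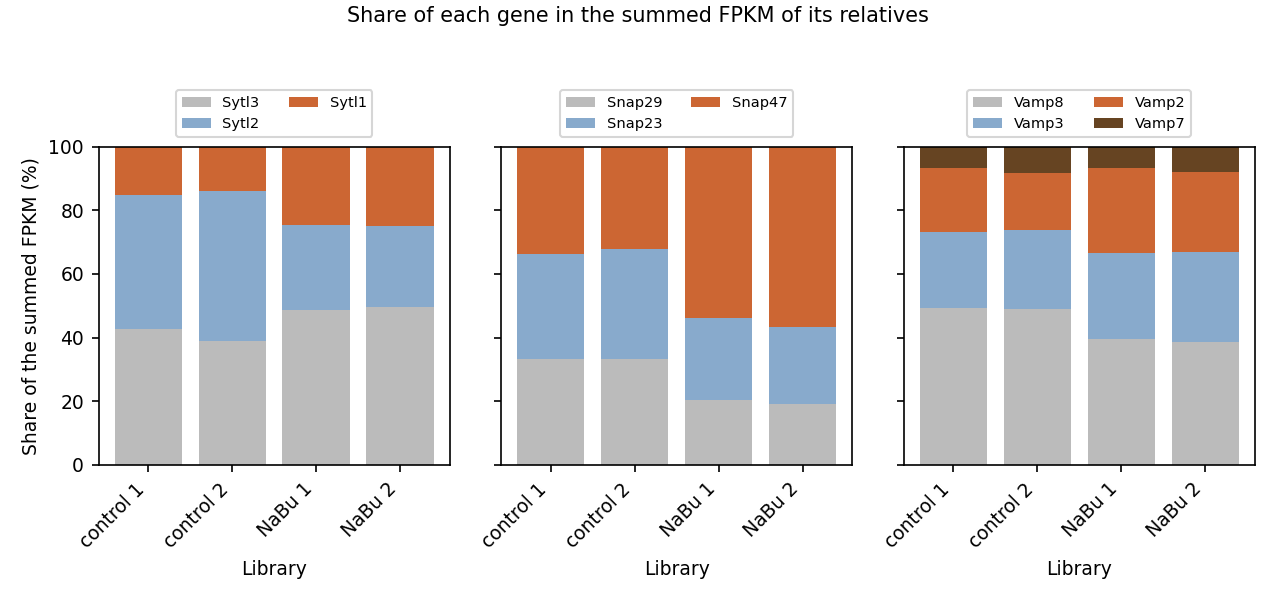
Stacked bars give, for each library, the percentage that each gene contributes to the summed FPKM of its relatives, for 3 synaptotagmin-like genes, 3 SNAP genes and 4 VAMP genes. The share of *Snap47* is larger in both NaBu libraries than in both controls, and those of *Sytl2* and *Vamp8* are smaller.

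The VAMPs, the vesicle SNAREs, had 4 of 7 tested genes higher (57.1%) and 1 lower (14.3%), against 34.5% and 34.1% of all tested genes. *Vamp8* (gene 22320, chromosome 6, 72385221 to 72390667), an endosomal VAMP used in the exocytosis of blood and secretory cells, was the most abundant of them in every library. It had an FPKM of 50.9 and 50.8 in control and 38.6 and 36.9 in NaBu. This was a 1.44-fold fall (log2 -0.53 ± 0.08 SE, edgeR adjusted p = 0.000132). *Vamp7*, of late endosomes and lysosomes, was at 6.92 and 8.48 in control and 6.54 and 7.69 in NaBu. Its groups overlapped and it did not pass (edgeR adjusted p = 0.14), but without control 1 it was called lower (edgeR adjusted p = 0.0243), which makes 3 of the 5 granule release genes lower in that fit.

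*Vamp1* and *Vamp2* encode the synaptobrevins, the targets of tetanus toxin. *Vamp1* (gene 22317, chromosome 6, 125215581 to 125222306) went from 2.73 and 2.39 to 5.69 and 5.25, a 2.03-fold rise (log2 1.02 ± 0.11 SE, edgeR adjusted p = 1.36e-05). *Vamp2*, which is also widely expressed outside neurons, was at 20.6 and 18.9, then 26.2 and 23.8. It was called 1.19-fold higher (edgeR adjusted p = 0.0178), but not by DESeq2 (adjusted p = 0.0617) or by edgeR without a filter on low counts (adjusted p = 0.0798). That call was lost without control 2, NaBu 1 or NaBu 2 (edgeR adjusted p = 0.0837, 0.242 and 0.0501). *Vamp5*, best known from muscle, rose 4.98-fold from 0.53 and 0.71 to 3.16 and 3.43. *Vamp4*, of the trans-Golgi network, rose 1.5-fold from 5.76 and 5.46 to 8.68 and 9.27. *Vamp3*, encoding cellubrevin of recycling endosomes, was at 24.6 and 25.9, then 26.3 and 26.9, and did not pass.

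Of the SNAP proteins, which add a pair of helices to the SNARE bundle, *Snap47* (gene 67826, chromosome 11, 59407141 to 59450041) moved most. It was at 12.3 and 12.5 in control and 41.2 and 40.7 in NaBu, a 3.09-fold rise (log2 1.63 ± 0.07 SE, edgeR adjusted p = 2.13e-08). *Snap23* (gene 20619, chromosome 2, 120567655 to 120601255), which takes the place of SNAP-25 outside neurons, went from 12.0 and 13.4 to 19.6 and 17.4, a 1.36-fold rise (log2 0.45 ± 0.09 SE, edgeR adjusted p = 0.00135). *Snap29*, used in autophagosome fusion, was at 12.1 and 12.8, then 15.7 and 13.6, and did not pass on the TMM scale, while on library totals it was called higher (edgeR adjusted p = 0.0291). The 3 genes held similar shares of their summed FPKM in the controls, with *Snap47* at 33.8% and 32.2%, and in NaBu *Snap47* held 53.8% and 56.7%. *Snap25*, the SNAP gene of neurons, had an FPKM of 0.03 and 0.07 in control and 0.01 and 0.04 in NaBu, at most 3.1 counts in a library, so no change in it was detectable at this depth.

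The synaptotagmins split by level. *Syt11* was the most abundant, at 5.06 and 4.63 in control and 12.4 and 12.1 in NaBu. It encodes a member that does not bind calcium, and rose 2.36-fold (log2 1.24 ± 0.08 SE, edgeR adjusted p = 2.72e-07). *Syt17* had 2 and 0 counts in control and 40 and 35 in NaBu, with an FPKM of 1.25 and 1.09 there. The ratio of counts per library total was 38.6, with an exact 95% counting interval from 10.3 to 325 (edgeR adjusted p = 2.78e-05). *Syt3*, one of the neuronal synaptotagmins, had 0 and 1 counts in control and 19 and 21 in NaBu, a ratio of 41.2 with an interval from 6.98 to 1667 (edgeR adjusted p = 0.000107). Both genes were almost absent from the control counts and low in NaBu, and both entered the test only through their NaBu counts, so a test of them could hardly give another direction. The intervals cover counting error only.

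*Syt7*, a calcium sensor of lysosome exocytosis, was too low to test, with about 2 counts in control and 17 in NaBu, a ratio of 8.75 and an interval from 2.08 to 78.1. *Syt5* was called 2.23-fold higher (0.5 and 0.17, then 1.0 and 0.6, edgeR adjusted p = 0.0458), and that call was lost without control 2, NaBu 1 or NaBu 2 (edgeR adjusted p = 0.307, 0.328 and 0.0513). DESeq2 did not call *Syt5* (adjusted p = 0.181), nor did edgeR without a filter on low counts (adjusted p = 0.169). *Syt5* also passed the filter on low counts only through NaBu, so its direction was fixed by that choice. *Syt1*, the main calcium sensor of fast transmitter release, was at 0.08 and 0.15 in control and 0.15 and 0.09 in NaBu, and the groups overlapped fully. *Syt12* was at 0.37 and 0.46, then 0.48 and 0.55, and did not pass. *Syt13* reached at most 0.13 and was not tested. *Syt14* and *Syt15* also did not pass, at an FPKM of at most 0.43, and the 6 synaptotagmins not tested had at most 0.19.

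The synaptotagmin-like genes, whose products bind Rab27 on granules, moved in opposite directions. *Sytl2* (gene 83671, chromosome 7, 90302211 to 90410719), whose product helps granules dock in cytotoxic T cells, fell from 36.0 and 38.1 to 20.07 and 20.01. The fall was 2.0-fold after rounding (log2 -1.0 ± 0.06 SE, edgeR adjusted p = 2.62e-07), the largest fall of any member tested. *Sytl1* rose 1.44-fold, from 13.2 and 11.4 to 18.6 and 19.3. *Sytl3* was at 36.7 and 31.7, then 36.4 and 38.6, with overlapping groups, and did not pass. The share of *Sytl2* in the summed FPKM of these 3 was 42.0% and 47.0% in control and 26.7% and 25.7% in NaBu. *Sytl4* and *Sytl5* stayed at or below an FPKM of 0.24.

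Summed over their genes, the 20 neuronal members had an FPKM of 34.8 and 31.2 in control and 77.5 and 72.3 in NaBu. *Vamp2*, also widely expressed outside neurons, gave 20.6 and 18.9 of these sums in control and 26.2 and 23.8 in NaBu. The 5 granule release genes summed to 135 and 133 in control and 127 and 122 in NaBu, the larger sum in every library. An FPKM of 1 or more was reached by 35 members in each control and by 40 and 38 in NaBu. Over all genes that count also rose, from 10722 and 10627 in control to 11220 and 11250 in NaBu.

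Listed genes of the same pathway that the symbol rule leaves out were counted in the same fit, which called 34.5% of all tested genes higher and 34.1% lower. Of 15 tested synaptic vesicle genes among them, 9 (60%) were higher and 1 lower, and the median was 0.64 on the log2 scale. Of the 10 that passed the filter in both groups, 5 were higher and 0 lower. *Sncb*, encoding beta-synuclein, was at 0.16 and 0.29 in control and 4.26 and 3.88 in NaBu. It passed the filter only through NaBu, so its direction was fixed by that choice. *Slc17a7*, the vesicular glutamate transporter VGLUT1, went from 0.86 and 0.69 to 9.49 and 9.66, an 11.5-fold rise. *Dnm1*, the neuronal dynamin that pinches off endocytic vesicles, rose 11.3-fold, from 0.97 and 0.38 to 8.46 and 7.8. The 1 called lower was *Syngr4*, a synaptogyrin relative, which fell 7.54-fold from 2.55 and 3.0 to 0.5 and 0.31. *Syngr4* passed the filter only through control, the group where it is high, so its direction was fixed as well.

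Of 18 tested genes of vesicle docking and priming, 10 (55.6%) were higher and 4 lower, with a median of 0.33, and of the 14 that passed the filter in both groups 6 were higher and 4 lower. *Unc13d*, encoding the priming factor Munc13-4 of lytic granules, fell 3.0-fold from 57.2 and 51.6 to 18.4 and 20.3 (edgeR adjusted p = 3.17e-08), while *Rab27a*, the GTPase that brings granules to the membrane, rose 1.23-fold from 64.1 and 65.1 to 83.6 and 86.9. *Lyst*, which governs the size of lytic granules, rose 1.36-fold from 9.82 and 9.4 to 12.9 and 14.9. *Rab3a*, the Rab of synaptic vesicles, rose 3.25-fold from 1.7 and 2.24 to 6.38 and 7.33. The priming factor gene *Unc13a*, best known from neurons, went the other way and fell 2.39-fold, from 9.58 and 6.83 to 3.71 and 3.63. *Rims3* also fell, from 2.05 and 2.19 to 1.0 and 1.1 (edgeR adjusted p = 0.00402), a call that DESeq2 did not make (adjusted p = 0.0732).

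Of 22 tested SNAREs with other names and fusion cofactors, 5 (22.7%) were higher, 4 lower and 13 not called, with a median of 0.02, or 9 higher and 4 lower on library totals. Without NaBu 1 the test called 2 higher and without NaBu 2 it called 1. *Nsf*, the ATPase that takes SNARE bundles apart, was at 17.9 and 18.4 in control and 18.2 and 18.4 in NaBu and did not pass. *Napa*, its adaptor alpha-SNAP, rose 1.23-fold from 44.4 and 39.9 to 54.9 and 55.7, a call lost without NaBu 2 (edgeR adjusted p = 0.0529). The Golgi SNARE gene *Gosr1* fell 1.53-fold and *Bnip1*, of the endoplasmic reticulum, 1.52-fold. *Scfd1*, a relative of the Munc18 genes that acts between the endoplasmic reticulum and Golgi, fell 1.47-fold. *Bet1l* rose 1.31-fold, a call that DESeq2 did not make (adjusted p = 0.0698). Without NaBu 2 the log2 fold change of *Bet1l* was 0.34.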

How the data were processed

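RNA-seq libraries of 2 control and 2 NaBu samples were grouped by the sample titles. Bowtie2 and RSEM, with mm10, are named in the submitters' processing notes. Their versions, the library kit, strandedness and annotation release were not given in the sources used here. Each deposited file lists, for every gene, the authors' expected count (not normalized, rounded to whole numbers here before testing) and FPKM value, per the file headers. FPKM values were used as deposited. Genes missing from 1 library's list were taken as 0 there. RSEM divides reads between similar genes, which makes the split between near-identical copies uncertain.

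The test was edgeR 4.0.16 (R 4.3.3) with TMM factors of 0.968, 0.9658, 1.035 and 1.033 and default filterByExpr, leaving 12943 genes. NaBu was set against control by the quasi-likelihood F test, without covariates and with Benjamini-Hochberg adjustment over all tested genes. The standard error (SE) of a log2 fold change is its size over the root of its F value. Fold changes are on the TMM scale and so differ slightly from ratios of FPKM. On library totals the median of all tested genes lay at a log2 fold change of 0.102 instead of 0.005. With 2 libraries per group an exact two-sided permutation test of a single value cannot go below p = 0.333, so none was run. On simulated counts of 12710 genes for this comparison, the test called 79.7% of 64 genes with a 1.5-fold change and 90.6% of 64 with a 2-fold change. In that simulation 12517 genes were unchanged, whereas 68.6% of genes were called in the real data, so these rates need not hold there. Libraries of a group differed by more than counting noise (chi-square per degree of freedom 7.27 for control and 2.77 for NaBu). Ratios of genes with up to 3 control counts use exact binomial intervals. Such intervals hold only counting error, because without molecular identifiers reads need not be independent molecules.

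Members and lists were chosen with earlier results of these data known. The text names every granule release gene, every called member whose higher group averaged at least 1 FPKM, every neuronal member with an FPKM of 0.1 or more in any library, up to 4 called genes per other list, and *Unc13d*, *Rab27a*, *Lyst*, *Nsf* and *Napa*. Counts, medians and sums cover every member, but 2 members are not reported here singly or drawn. Other members, and the markers *Cd3e*, *Cd8a*, *Ptprc*, *Cd68*, *Itgam*, *Mpeg1*, *Itgax*, *Fcgr3*, *Adgre1*, *Cd14*, *Nefh*, *Tubb3* and *Ncam1*, were named after their values were seen. The level of 5 FPKM that defines low genes was also chosen after seeing the data. Coordinates and promoters are RefSeq's on GRCm38.p6, the assembly also called mm10. Promoter windows were found for 46 of the 59 members. Alternatives were DESeq2's median-of-ratios factors, library totals, 2 filters, DESeq2 1.42.0, limma 3.58.1 on log2(FPKM + 1) and on log2(FPKM + 0.1) for genes reaching 1 FPKM in 2 libraries or more, limma without that filter, a replicate block, and leaving out each library.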

Additional observations from a re-analysis of the deposited data

How the results depend on the processing

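Over the alternatives run, the neuronal members called higher numbered between 7 and 10 and those lower 0 in each; the granule release members called higher numbered 2 in each and those lower 2, or 3 without control 1. All members called higher numbered between 22 and 27 and lower between 6 and 8. With the replicate number as a block, which the labels do not tie to a shared animal or day, 25 members were higher and 7 lower, and the deviations of libraries with the same number had a correlation of -0.0306 across genes. Of 63 genes examined one by one, 44 kept their direction and their side of the threshold under every alternative that tested them. The docking and priming genes higher numbered 5 with a minimum of 5 CPM and 6 with limma on log2(FPKM + 1) or log2(FPKM + 0.1), instead of 10, as fewer low genes were tested. The other synaptic vesicle genes higher numbered 4, 5 and 5 in these 3 fits instead of 9, and those lower 0 with the CPM minimum. The other SNAREs and cofactors higher numbered 9 on library totals, 3 without a filter, 2 with DESeq2, and from 1 to 5 without single libraries.

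The genes whose direction turned were not called in the TMM fit or in the fit that turned them. On library totals the log2 fold change was 0.0094 for *Nsf*, 0.048 for *Stx17*, 0.060 for *Stx5a*, 0.042 for *Syt1*, 0.078 for *Vamp3*, each below 0 in the TMM fit. With the CPM minimum it was 0.010 for *Stx17*, 0.022 for *Stx5a*, 0.040 for *Vamp3*. With limma on log2(FPKM + 1) it was 0.0087 for *Nsf*, 0.046 for *Stx17*, 0.042 for *Stx5a*, 0.074 for *Vamp3*, on log2(FPKM + 0.1) 0.0091 for *Nsf*, 0.053 for *Stx17*, 0.044 for *Stx5a*, 0.077 for *Vamp3*, and without the filter 0.0087 for *Nsf*, 0.046 for *Stx17*, 0.042 for *Stx5a*, 0.074 for *Vamp3*, 0.0066 for *Syt1*. Without single libraries it ranged from -0.17 to 0.074 for *Stx17*, from -0.017 to 0.078 for *Stxbp3*, from -0.43 to 0.45 for *Syt1*, from -0.094 to 1.03 for *Syt15*, from -0.057 to 0.15 for *Sytl3*, from -0.063 to 0.015 for *Vamp3*. The cause was not tested. With 2 libraries a group and members such as *Snap25* at a few counts, depth limits what could be called.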
